A study of Homo sapiens with 4 samples.

Results

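The genes described here are 10 adhesion and NF-kB genes of human kidney cells. They are the adhesion molecules VCAM1 and ICAM1, the NF-kB subunits NFKB1, NFKB2 and RELB, the inhibitors NFKBIA and TNFAIP3, and BIRC3, TRAF1 and TNFAIP2, which NF-kB switches on in many cells. They were chosen by name with measured values of the comparison below already known, so their own differences between the groups are given as a description and carry no test. All 10 are among the 33886 gene symbols with a transcript in the deposited tables, and all 10 passed the low-count filter that left 13542 genes for testing. Polyadenylated RNA was sequenced from HK-2 cells, which descend from immortalised proximal tubule epithelium of a human kidney and here carry a Tet-On construct for PRCC-TFE3, the fusion protein of a renal carcinoma, with an HA tag. The 2 Doxy(-) libraries came from cells cultured without doxycycline, and the 2 Doxy(+) libraries from cells given 0.2 microg/ml doxycycline for 24 h to switch the fusion on. Both groups carried the construct, and HK-2 cells without it were not analysed here, so an action of doxycycline itself and one of PRCC-TFE3 cannot be told apart. The labels give replicate numbers 1 and 2 but not whether these were separate cultures or clones, so every p-value here measures only the spread between these libraries.

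The libraries held 12654233 to 15012743 estimated reads on genes, and none stood apart in depth. TFE3, the gene to which reads of the fusion can be assigned, had 66.9 and 69.1 CPM (counts scaled to a library total of 1000000) in Doxy(-) 1 and 2 and 367 and 322 CPM in Doxy(+) 1 and 2 (log2 fold change 2.34, SE 0.0719, adjusted p = 4.37e-05 by edgeR's quasi-likelihood test). Of 17 proximal tubule and epithelial markers, 10 had a mean of at least 1 CPM, PAX8 and the keratins KRT8, KRT18 and KRT19 among them. PAX2, ANPEP, LRP2, CUBN, AQP1, SLC34A1 and CDH1 did not reach that level. Over the list, 4 of 12 markers tested were lower (CDH2, KRT8, KRT18 and KRT19) and 2 higher (MME and GGT1) at an adjusted p under 0.05 by edgeR. Over all genes tested, 9.59% were lower and 9.81% higher by that limit. The summed level of the list was 2400 and 2420 CPM in Doxy(-) and 2100 and 2140 CPM in Doxy(+). The part of this difference in the results was not tested. Of 6 endothelial markers none reached 1 CPM, CDH5 and KDR had no read, and the summed level was 1.16 CPM in 3 libraries and 1.42 CPM in Doxy(+) 2. Of 6 leukocyte markers only CSF1R reached 1 CPM, CD3E had no read, and the sum ranged from 3.57 to 4.62 CPM. Among 6 fibroblast markers COL1A1, DCN and LUM reached 1 CPM, with sums of 186 and 196 CPM in Doxy(-) and 204 and 202 CPM in Doxy(+). LUM made up most of these sums, at 160 and 174 CPM in Doxy(-) and 185 and 184 CPM in Doxy(+). Of the 3 tested, COL1A1 was lower, from 21.3 to 16.1 CPM (log2 fold change -0.40, adjusted p = 0.0403 by edgeR), and none was higher. None of the 3 passed by DESeq2. In RNA of a whole culture, fewer cells that express a gene and less RNA per cell cannot be told apart.

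NF-kB is a family of dimeric transcription factors that rest in the cytoplasm bound to inhibitor proteins. Receptors for tumour necrosis factor, interleukin-1 and microbial products set off a kinase complex that has the inhibitor destroyed, which frees the dimers to enter the nucleus, while a second branch works through processing of the NFKB2 precursor and its partner RELB. Several of the genes switched on in this way encode brakes on the pathway, and the adhesion molecules ICAM1 and VCAM1, which hold leukocytes through their integrins, appear on tubule cells of the inflamed kidney.

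The sequences upstream of these genes are shown because NF-kB dimers bind short DNA elements that can be read in them. They are reference sequences of the 250 bases before and 50 bases after an annotated start, from RefSeq on GRCh38.p14, which held 14 such windows for 9 of the 10 genes. RELB was not among them. The stretches printed are parts of these windows with a match and no overlap with an exon of GENCODE release 44, and each is written 5′ to 3′ on the strand of its gene. Capitals mark matches to the 10-base NF-kB consensus on either strand, the palindromic E-box CACGTG in TNFAIP3, and, in ICAM1, the 9-base pattern GGNNNTTCC. The stretches lie at chr1:100719642-100719741 on the plus strand for VCAM1, chr19:10270910-10270979 on the plus strand for ICAM1, chr10:102395505-102395564 on the plus strand for NFKB2, chr14:35404750-35404849 on the minus strand for NFKBIA, chr6:137867119-137867213 on the plus strand for TNFAIP3, and chr11:102317264-102317383 on the plus strand for BIRC3.
VCAM1: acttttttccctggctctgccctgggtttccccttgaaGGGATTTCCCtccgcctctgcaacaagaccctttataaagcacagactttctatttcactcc
ICAM1: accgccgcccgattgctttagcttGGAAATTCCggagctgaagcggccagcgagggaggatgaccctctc
NFKB2: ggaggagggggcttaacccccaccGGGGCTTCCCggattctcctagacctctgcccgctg
NFKBIA: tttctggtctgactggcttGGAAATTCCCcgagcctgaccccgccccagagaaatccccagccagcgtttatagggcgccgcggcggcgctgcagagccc
TNFAIP3: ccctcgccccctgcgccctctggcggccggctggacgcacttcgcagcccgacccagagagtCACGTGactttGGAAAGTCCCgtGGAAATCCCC
BIRC3: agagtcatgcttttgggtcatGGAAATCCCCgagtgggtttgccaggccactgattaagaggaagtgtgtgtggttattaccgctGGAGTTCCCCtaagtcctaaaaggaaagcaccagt

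The VCAM1 match began 62 bases before the annotated start and the NFKBIA match 81 bases before it. TNFAIP3 had matches at 67 and 55 bases before its start, with the E-box at 78 bases, and BIRC3 had matches at 199 and 135 bases. The NFKB2 stretch belongs to one of several annotated starts and holds a match at 176 bases. The consensus was present in 7 of the 14 windows, belonging to VCAM1, NFKBIA, TNFAIP3, NFKB1, NFKB2 and BIRC3, against 11.3% of all 35116 promoter windows. Among the 15266 windows of genes tested here the share was 13.3%. ICAM1 had no match to the consensus in its window. The looser pattern GGNNNTTCC, which was added after the windows had been read and which overlaps most consensus matches, was in 11 of the 14 windows and in all 9 genes with a window, against 20.1% of all windows. It was in 22.7% of the windows of genes tested. In ICAM1 it began 186 bases before the start.

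PRCC-TFE3 keeps the DNA-binding part of TFE3, a factor that binds E-boxes, so E-box letters were counted in the same windows on both strands. CACGTG occurred in the TNFAIP3 window alone among the 14, against 7.3% of all windows. CATGTG occurred in one window each of NFKB1 and BIRC3, against 11.1% of all windows, and the longer TCATGTG in none of the 14, against 2.9%. The pattern TGANTCA, bound by AP-1 factors that often act beside NF-kB, was in none of the 14 windows and in 7.7% of all windows. Over windows of genes tested the shares were 9.3% for CACGTG, 7.5% for CATGTG, 1.9% for TCATGTG and 5.2% for TGANTCA. A match is a property of the letters and says nothing of binding in these cells, and an absent match covers only these windows.

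**Figure D1:**
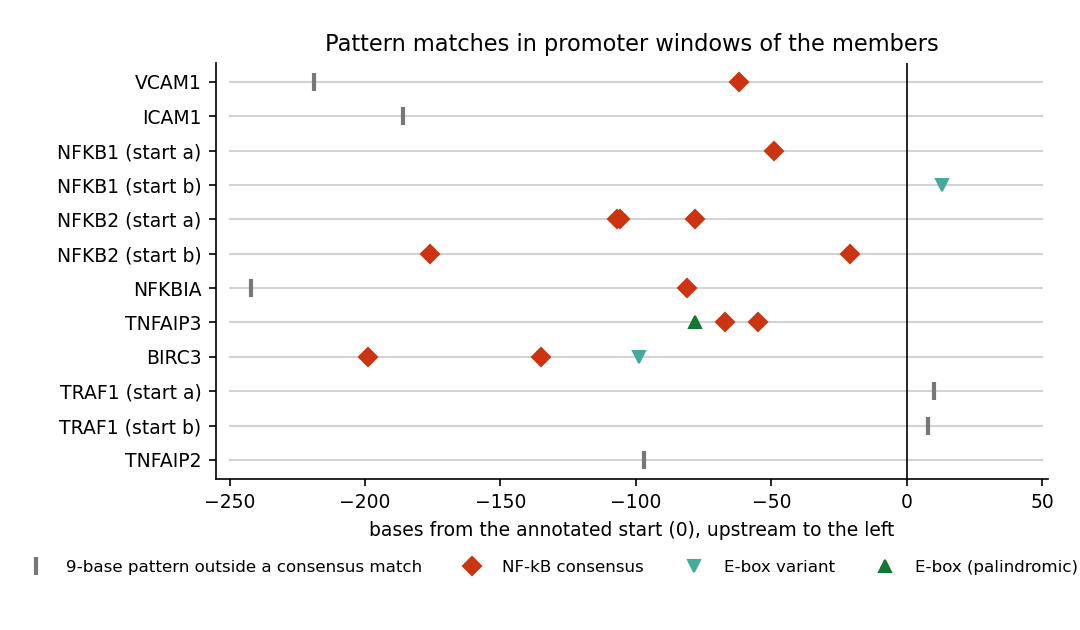
Positions of sequence patterns in the promoter windows of the members that hold at least 1 match. The x axis gives bases from the annotated start, negative upstream, each line is a window, and symbols mark the 10-base NF-kB consensus, the 9-base pattern where it lies outside a consensus match, and the E-boxes CACGTG and CATGTG. All NF-kB consensus matches lie upstream of the start, the farthest at 199 bases in BIRC3, while ICAM1, TRAF1 and TNFAIP2 hold the 9-base pattern only.

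Between the groups, VCAM1 was the member with the widest difference and the one that was lower by more than 1 on the log2 scale. NFKBIA, TNFAIP2, NFKB2, BIRC3 and TRAF1 were lower in both Doxy(+) libraries than in both Doxy(-) libraries, by 21.6% to 40.6% of their Doxy(-) mean CPM. ICAM1 and TNFAIP3 were higher in both Doxy(+) libraries, by 19.9% and 13.4%. In CPM, NFKB1 and RELB overlapped between the groups.

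VCAM1, a cell surface protein that binds the integrin of alpha 4 and beta 1 chains on leukocytes (ENSG00000162692.12, plus strand of chr1:100719742-100739045, hg38), was supported by 251 and 288 reads in Doxy(-) 1 and 2 and by 84.0 and 102 in Doxy(+) 1 and 2. Scaled to library size these were levels of 19.5 and 19.6 CPM against 6.52 and 7.60 CPM, so that the higher Doxy(+) library lay far under the lower Doxy(-) library. The group means were 19.5 ± 0.0894 and 7.06 ± 0.759 CPM (SD, n = 2), a difference of -63.9%. The log2 fold change was -1.47 (SE 0.119), lower than that of all but 0.48% of the genes tested.

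ICAM1, the related ligand of the leukocyte integrin LFA-1 (ENSG00000090339.9, plus strand of chr19:10271093-10286615), had levels of 364 and 369 CPM in Doxy(-) and 446 and 433 CPM in Doxy(+). All 4 values rested on 4691 or more estimated reads and the groups did not overlap. The difference was 19.9% of the Doxy(-) mean, a log2 fold change of 0.26 (SE 0.0316). On the TPM scale, which divides reads by transcript length before scaling to 1000000, ICAM1 was 19.4 and 19.0 times as abundant as VCAM1 in Doxy(-) 1 and 2 and 69.5 and 68.7 times as abundant in Doxy(+) 1 and 2. Exons of ICAM1 overlap those of ICAM4-AS1 and LIMASI on the other strand, and whether the authors' counting used the strand is not given in the sources used here, so reads of these genes cannot be told apart with certainty.

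**Figure D2:**
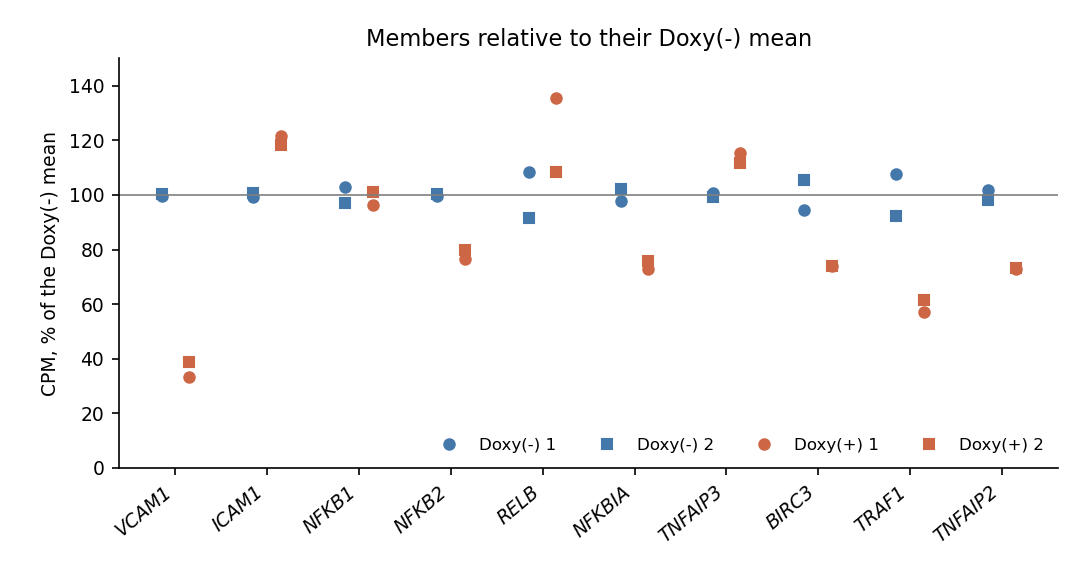
CPM of each member in each library as a percentage of that gene's mean over the 2 Doxy(-) libraries, with the grey line at 100%. Circles are replicate 1 and squares replicate 2. VCAM1 lies lowest in Doxy(+), ICAM1 and TNFAIP3 lie above the line in both Doxy(+) libraries, and NFKB1 and RELB overlap between the groups.

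NFKB1, which encodes the precursor of the subunit that pairs with RELA (ENSG00000109320.14, plus strand of chr4:102501330-102617302), had 129 and 122 CPM in Doxy(-) and 121 and 127 CPM in Doxy(+). The 4 values interleaved, and the log2 fold change of -0.01 (SE 0.0505) was far within the spread of either group. NFKB2, the precursor of the second branch (ENSG00000077150.21, plus strand of chr10:102394110-102402524), had 201 and 203 CPM in Doxy(-) and 155 and 161 CPM in Doxy(+). Its groups were separate, with a difference of -21.6% and a log2 fold change of -0.35 (SE 0.0381). RELB, the partner of the processed NFKB2 protein (ENSG00000104856.15, plus strand of chr19:45001461-45038192), had 21.0 and 17.7 CPM in Doxy(-) and 26.2 and 21.0 CPM in Doxy(+). One library of each group stood at 21.0 CPM, and the log2 fold change of 0.29 (SE 0.142) became 0.12 without Doxy(+) 1 and 0.44 without Doxy(+) 2.

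As shares of the summed TPM of the 5 subunit genes, NFKB2 made up 45.3% and 46.4% in Doxy(-) and 41.3% and 42.2% in Doxy(+). NFKB1 made up 22.8% and 21.5% against 24.2% and 26.1%, and RELB 9.69% and 9.46% against 12.8% and 11.1%. None of these 3 shares overlapped between the groups, although the CPM of NFKB1 and RELB did. For RELB this is partly the scale. Its TPM did not overlap, at 23.5 and 23.0 in Doxy(-) and 28.1 and 24.7 in Doxy(+). TPM depends on the split of reads over transcripts, which was unstable for RELB. The TPM of NFKB2 was 4.67 and 4.90 times that of RELB in Doxy(-) and 3.23 and 3.80 times that of RELB in Doxy(+).

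NFKBIA encodes IkB-alpha, the inhibitor that NF-kB induces to hold its own dimers back (ENSG00000100906.12, minus strand of chr14:35401079-35404749). Its level was 141 and 147 CPM in Doxy(-) and 105 and 109 CPM in Doxy(+). The groups did not overlap, with a difference of -25.5% and a log2 fold change of -0.43 (SE 0.0455). TNFAIP3, or A20, an enzyme that edits ubiquitin chains and shuts off signalling to the kinase complex (ENSG00000118503.18, plus strand of chr6:137867214-137883314), stood at 46.2 and 45.5 CPM in Doxy(-) and 52.9 and 51.2 CPM in Doxy(+). On this scale both Doxy(+) libraries were above both Doxy(-) libraries, with a log2 fold change of 0.18 (SE 0.0552). In TPM the groups overlapped, at 26.5 and 20.9 in Doxy(-) and 24.7 and 23.8 in Doxy(+), and the log2 fold change on the log2(TPM + 1) scale was 0.04. The TPM of NFKBIA was 5.62 and 7.44 times that of TNFAIP3 in Doxy(-) and 4.58 and 4.85 times in Doxy(+). Exons of TNFAIP3 overlap those of WAKMAR2 on the other strand.

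BIRC3, or cIAP2, a ubiquitin ligase of the tumour necrosis factor receptor complex (ENSG00000023445.17, plus strand of chr11:102317484-102339403), had 70.1 and 78.3 CPM in Doxy(-) and 54.8 and 55.0 CPM in Doxy(+). The Doxy(+) libraries were nearly equal and both under the Doxy(-) libraries, and the log2 fold change was -0.44 (SE 0.0685). TRAF1, an adaptor that joins TRAF2 and BIRC3 at these receptors (ENSG00000056558.11, minus strand of chr9:120902393-120929173), had 31.9 and 27.4 CPM in Doxy(-) and 16.9 and 18.3 CPM in Doxy(+). After VCAM1 this was the widest difference among the members, -40.6% with a log2 fold change of -0.75 (SE 0.107). The TPM of TRAF1 was 0.345 and 0.328 times that of its relative TRAF2 in Doxy(-) and 0.191 and 0.213 times in Doxy(+), and that of BIRC3 was 0.744 and 0.800 times that of BIRC2 in Doxy(-) and 0.655 and 0.631 times in Doxy(+).

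TNFAIP2, first described as a gene that tumour necrosis factor switches on (ENSG00000185215.11, plus strand of chr14:103121476-103137439), had 352 and 340 CPM in Doxy(-) and 252 and 253 CPM in Doxy(+). The Doxy(+) values differed by less than the Doxy(-) values did and lay under them, with a difference of -27.0% and a log2 fold change of -0.45 (SE 0.0339). Exons of TNFAIP2 overlap those of ENSG00000289917, and exons of BIRC3 those of ENSG00000288528, both on the other strand.

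Read as levels in TPM, the Doxy(-) order began with TNFAIP2 at a mean of 221, ICAM1 at 199, NFKBIA at 152, NFKB2 at 111 and NFKB1 at 53.8 TPM. BIRC3, TNFAIP3 and RELB followed at 23.8, 23.7 and 23.3 TPM with overlapping libraries, and TRAF1 and VCAM1, both at 10.4 TPM, overlapped as well. In Doxy(+) the order began with ICAM1 at 252 and TNFAIP2 at 159 TPM, and these were the only members of the first 5 places to exchange them. NFKBIA at 114, NFKB2 at 92.3 and NFKB1 at 55.6 TPM came next, then RELB at 26.4 and TNFAIP3 at 24.3 TPM with overlapping libraries. BIRC3 at 17.5, TRAF1 at 6.33 and VCAM1 at 3.65 TPM closed the order, and no library of one reached that of its neighbour.

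**Figure D3:**
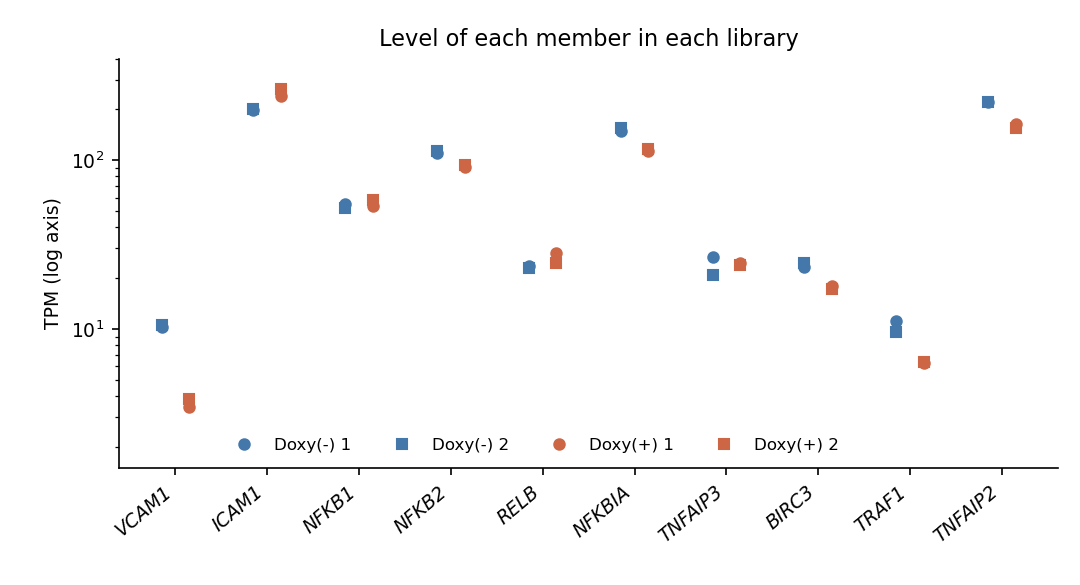
TPM of each member in each library on a log axis, with Doxy(-) in blue and Doxy(+) in orange, replicate 1 as a circle and replicate 2 as a square. ICAM1 and TNFAIP2 are the most abundant members, at 197 to 263 and 154 to 221 TPM, and VCAM1 is among the least abundant, at 3.47 to 10.5 TPM.

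Over all 13542 genes tested, 9.59% were lower and 9.81% were higher in Doxy(+) at an adjusted p under 0.05, 19.4% in either direction. Of the 10 members, 6 were lower (VCAM1, NFKBIA, TNFAIP2, NFKB2, BIRC3 and TRAF1) and 1 was higher (ICAM1) by the same limit. With the further limit of a log2 fold change over 1 in size, which the study used, 1.97% of all genes were called, 0.473% lower and 1.5% higher, and VCAM1 was the 1 member among them. In CPM, 30.0% of all genes had both Doxy(+) libraries under both Doxy(-) libraries and 31.1% had them over, against 6 and 2 members. The median log2 fold change was -0.39 over the members and 0.0 over all genes. Because the members were selected on this contrast, nothing is read from these counts.

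The VCAM1 total rested on 84.0 to 288 reads per library, and its distribution over annotated transcripts varied more between replicates than the total did. The full-length form VCAM1-201 took 64.5% and 24.8% of the reads in Doxy(-) 1 and 2 and 61.1% and 91.5% in Doxy(+) 1 and 2. VCAM1-204 lacks 186 bases of exon 2 (chr1:100720566-100720751) and is also annotated to end earlier, at 100738613 against 100739045 for VCAM1-201. It took 35.5% and 35.2% in Doxy(-) and 24.5% and 7.6% in Doxy(+). Which of these 2 features its share follows was not tested. VCAM1-202, which lacks the 276 bases of exon 5 (chr1:100729107-100729382), took 39.2% in Doxy(-) 2, 14.4% in Doxy(+) 1 and no read in the other libraries. The shares of VCAM1-201 and VCAM1-202 overlapped between the groups, and those of VCAM1-204 did not. The VCAM1-204 reads, 89.1 and 101.3 in Doxy(-) and 20.6 and 7.8 in Doxy(+), are the quantifier's split of reads that the forms share.

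**Figure D4:**
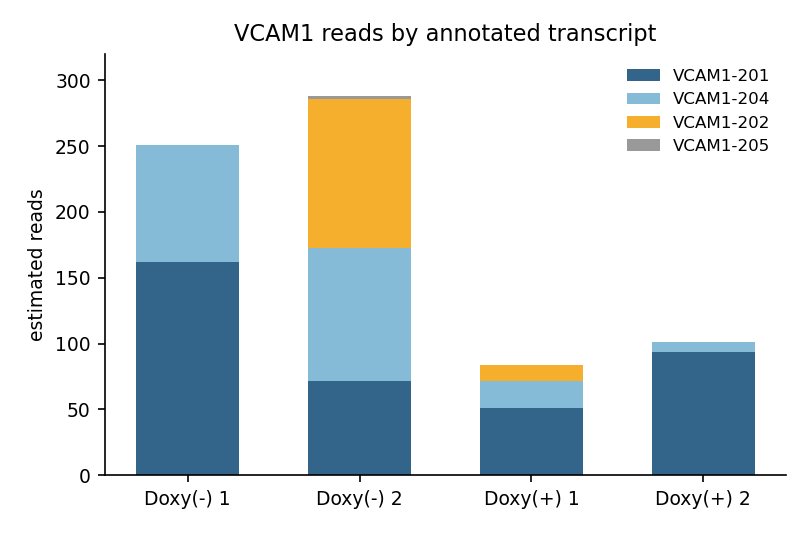
Estimated reads on each annotated VCAM1 transcript in the 4 libraries, stacked so that the bar height is the gene's total. The total is lower in both Doxy(+) libraries, 84.0 and 102 reads against 251 and 288, while the make-up differs between replicates, VCAM1-202 being at 0 in Doxy(-) 1 and at 112.8 reads in Doxy(-) 2.

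Most other members had 1 leading transcript with a like share in each library, but the size of that share differed between genes. TNFAIP2-201 took 54.5% and 52.3% of the TNFAIP2 reads in Doxy(-) and 52.4% and 56.9% in Doxy(+). NFKBIA-201 took 91.6% and 92.1% of the NFKBIA reads in Doxy(-) and 96.9% and 88.6% in Doxy(+), and ICAM1-201 took 89.3% and 88.0% against 90.6% and 84.8%. In Doxy(+) 2, 117.5 NFKBIA reads were assigned to NFKBIA-203, an annotated target of nonsense-mediated decay that had at most 5.2 reads elsewhere. The estimates were less stable for RELB, whose form RELB-201 had 33.8% and 27.1% of reads in the libraries numbered 1 and none in those numbered 2, and for TRAF1, whose form TRAF1-203 took 24.0%, 26.8% and 36.9% in 3 libraries and none in Doxy(+) 2.

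The rest of the pathway was described through 145 other genes in 8 lists, of which 110 could be tested. Of these, 23 were lower and 11 higher in Doxy(+) at an adjusted p under 0.05 by edgeR, beside 9.59% and 9.81% of all genes, and 3 were lower and none higher past both limits. The lists were chosen with earlier results of these data known, so nothing about the pathway as a whole is read from these counts. The counts of each list below stand beside the same 9.59% and 9.81% of all genes, and nothing is read from them either. The median log2 fold change over the 110 genes was -0.06, beside 0.0 over all genes. Among the fits that left out 1 library, the counts of lower and higher pathway genes were smallest without a Doxy(+) library. The same held for the counts over all genes.

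Most ligands of the receptors had few reads, and 10 of 13 did not pass the low-count filter. The counts are those of matched identifiers only. For 6 pathway genes, identifiers that were left out as unmatched repeat a matched transcript. With such identifiers added, edgeR again called 23 pathway genes lower and 11 higher. Their part in the low counts of single ligands was not tested. TNF was estimated at 8.0 and 5.62 reads without doxycycline and at 4.99 and 4.14 reads with it, and IL1B had 1 read in Doxy(+) 2 and none in the other 3 libraries, where a count of 0 allows up to 3 reads or 0.204 to 0.233 CPM by counting error alone. IL1A had 6 and 10 reads in Doxy(-) and 15 and 19 in Doxy(+), with a log2 fold change of 1.15 (SE 0.421, adjusted p = 0.115 by edgeR). Of the 3 ligands tested by edgeR none passed, with 0 lower and 1 higher at an unadjusted p under 0.05, and none of the 2 to which DESeq2 and limma each gave an adjusted p passed there.

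Among 16 receptors, 13 were tested and 2 rose. LTBR, the lymphotoxin beta receptor that feeds the NFKB2 and RELB branch, went from 154 to 193 CPM (log2 fold change 0.32, SE 0.0373, adjusted p = 0.00275 by edgeR). TLR3, a receptor for double-stranded RNA, had a log2 fold change of 0.41 (adjusted p = 0.0372 by edgeR) and passed in no fit that left out a library, with adjusted p from 0.0717 to 0.146, nor with the replicate number as a block (adjusted p = 0.0605). No receptor was called lower by edgeR, with 1 lower at an unadjusted p under 0.05, nor among the 11 to which DESeq2 and limma each gave an adjusted p. TNFRSF1A, the main receptor for tumour necrosis factor, had 76.0 and 73.0 CPM on average (log2 fold change -0.06, adjusted p = 0.606 by edgeR), and IL1R1, the interleukin-1 receptor, a log2 fold change of -0.22 (adjusted p = 0.292 by edgeR). On the log2(TPM + 1) scale both signs turned, with log2 fold changes of 0.04 for TNFRSF1A and 0.18 for IL1R1, and that of TNFRSF1A was 0.02 without Doxy(-) 1.

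Of 26 adaptors and ubiquitin enzymes tested, which stand beside TRAF1 and BIRC3 in the pathway, 6 fell and 4 rose. MALT1, a protease of the CARD signalling complex, fell from 72.4 CPM in Doxy(-) to 48.1 CPM in Doxy(+) (log2 fold change -0.59, SE 0.0570, adjusted p = 0.00146 by edgeR), and CARD10, its scaffold outside lymphocytes, by 0.49 on the log2 scale (adjusted p = 0.00573 by edgeR). RNF31, the catalytic part of the linear ubiquitin ligase, fell by 0.63 on the log2 scale (adjusted p = 0.0248 by edgeR, 0.0637 without Doxy(+) 1), and TRAF5 rose by 0.43 (adjusted p = 0.0102 by edgeR, 0.0640 without Doxy(+) 2). Of 6 kinase genes tested none passed by edgeR, with 0 lower and 1 higher at an unadjusted p under 0.05, nor by limma, nor did any of the 5 to which DESeq2 gave an adjusted p. MAP3K14 of the kinase list and BCL10 of the adaptor list had no matched transcript and were not measured. The log2 fold changes of the kinase complex were 0.10 for CHUK, -0.09 for IKBKB and 0.12 for IKBKG, the last at a mean of 0.917 and 0.995 CPM (adjusted p = 0.282, 0.444 and 0.893 by edgeR). On the log2(TPM + 1) scale the signs of the last 2 turned, to 0.17 for IKBKB and -0.44 for IKBKG, and that of IKBKG also turned without Doxy(-) 2 (-0.13) and without Doxy(+) 1 (-0.44).

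Of the subunits outside the members, RELA, the chief activating subunit, fell from 73.3 CPM in Doxy(-) to 62.0 CPM in Doxy(+) (log2 fold change -0.24, SE 0.0564, adjusted p = 0.0318 by edgeR). It did not pass without Doxy(-) 1, Doxy(+) 1 or Doxy(+) 2 (adjusted p = 0.0612, 0.0843 and 0.187), nor by DESeq2 (adjusted p = 0.159). REL had a log2 fold change of 0.07 (adjusted p = 0.488 by edgeR). The TPM of NFKBIA, the inhibitor of RELA dimers, was 3.07 and 3.18 times that of RELA in Doxy(-) and 2.73 and 2.91 times in Doxy(+), and the TPM of NFKB1 was 1.14 and 1.07 times that of RELA in Doxy(-) and 1.29 and 1.46 times in Doxy(+).

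Beside NFKBIA and TNFAIP3, a list of IkB proteins and other inhibitors held 14 genes tested, of which 4 fell and 1 rose. Membership of the list does not make each of them an inhibitor. TNIP1, which binds TNFAIP3, fell from 235 CPM in Doxy(-) to 183 CPM in Doxy(+) (log2 fold change -0.36, SE 0.0531, adjusted p = 0.00660 by edgeR), and NFKBIZ, an inducible nuclear relative of NFKBIA, from 358 to 295 CPM (log2 fold change -0.28, adjusted p = 0.00361 by edgeR). BCL3, which joins dimers of the NFKB1 and NFKB2 products, fell by 0.58 on the log2 scale (adjusted p = 0.0243 by edgeR, 0.0690 without Doxy(-) 2 and 0.102 without Doxy(+) 1). ZC3H12A, a ribonuclease that cuts inflammatory messages, fell by 0.33 (adjusted p = 0.0194 by edgeR, 0.0786 without Doxy(+) 1 and 0.120 without Doxy(+) 2).

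Of 34 other NF-kB target genes tested, 10 fell and 3 rose, with a median log2 fold change of -0.18. The chemokine CXCL8 fell from 1030 CPM in Doxy(-) to 382 CPM in Doxy(+) (log2 fold change -1.44, SE 0.0274, adjusted p = 1.03e-05 by edgeR), CCL20 from 4.12 to 1.07 CPM (log2 fold change -1.94, SE 0.290, adjusted p = 0.00677 by edgeR), and the growth factor CSF2 from 77.8 to 41.9 CPM (log2 fold change -0.89, adjusted p = 0.000880 by edgeR). CXCL3 had a log2 fold change of -1.03 (adjusted p = 0.0432 by edgeR) and passed in no fit that left out a library, with adjusted p from 0.0632 to 0.193, nor with the replicate block (adjusted p = 0.0518). The list did not move one way. The next genes were chosen after their values were seen: interleukin-6, IL6, fell from 236 to 152 CPM (log2 fold change -0.63, adjusted p = 0.000648 by edgeR), while SOD2, the mitochondrial superoxide dismutase, rose from 747 to 1340 CPM (log2 fold change 0.84, SE 0.0270, adjusted p = 5.17e-05 by edgeR).

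Of 12 other adhesion molecules and integrin chains tested, 2 fell and 1 rose, and SELE and SELP, the selectins of endothelium, had no read in any library. ICAM5, a relative of ICAM1, was at 24.0 CPM in Doxy(-) and fell to 16.8 CPM in Doxy(+) (log2 fold change -0.51, adjusted p = 0.00973 by edgeR, 0.0555 without Doxy(+) 1). ITGB1, the beta chain of the VCAM1 receptor, fell by 0.24 on the log2 scale (adjusted p = 0.00492 by edgeR), and ALCAM rose by 0.22 (adjusted p = 0.0243 by edgeR, 0.129 without Doxy(+) 1 and 0.0818 without Doxy(+) 2). ITGA4, the alpha chain of that receptor and named here after its value was seen, had 22.2 and 18.0 CPM (log2 fold change -0.30, adjusted p = 0.0696 by edgeR).

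**Figure D5:**
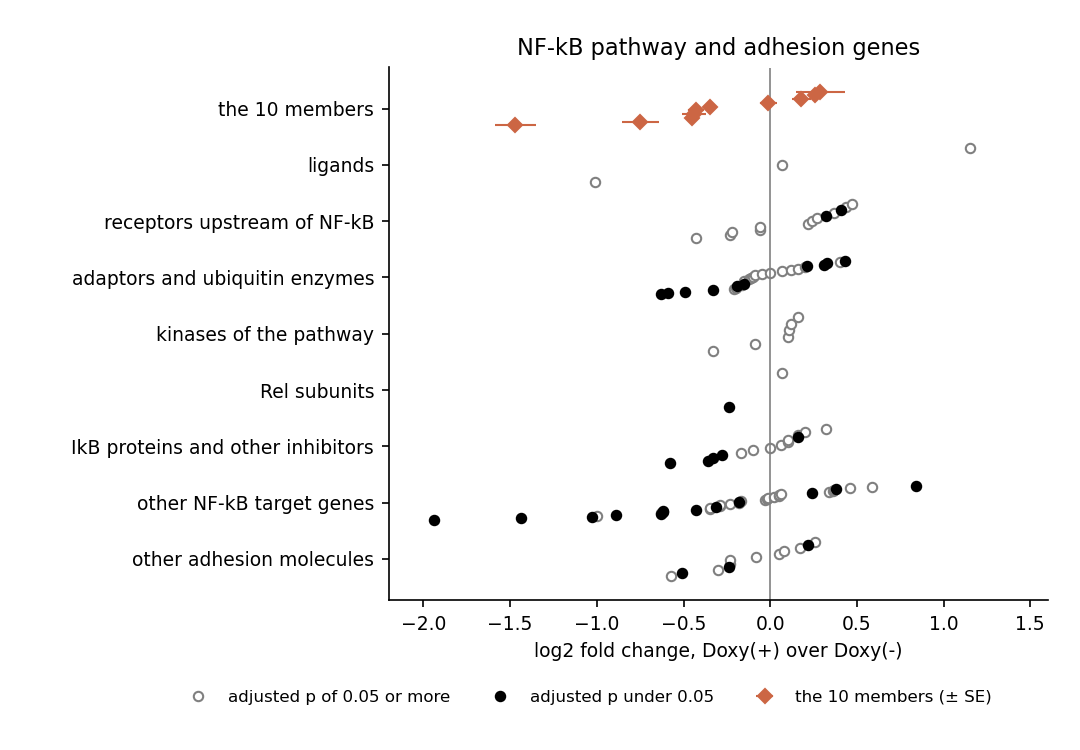
Log2 fold change of Doxy(+) over Doxy(-) for the 10 members (diamonds, with SE) and for the 110 other pathway genes tested, by list. Filled circles have an adjusted p under 0.05 by edgeR. Lower and higher genes occur together in the lists of adaptors, of IkB proteins and other inhibitors, of target genes and of adhesion molecules. The lowest values among the circles are CCL20 at -1.94 and CXCL8 at -1.44.

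The genes whose levels over the 4 libraries lay closest to VCAM1 were sought among 9607 genes whose mean CPM was 10 or more, by the Euclidean distance between log2 CPM values centred on each gene's mean. They were SLCO2A1, a prostaglandin carrier, at a distance of 0.123, TNFSF10, the death ligand TRAIL, at 0.132, CXCL8 at 0.153, F3, which encodes tissue factor, at 0.160, and HSPA12A at 0.174. Their log2 fold changes lay between -1.59 for F3 and -1.39 for TNFSF10 and HSPA12A, around the -1.47 of VCAM1. With 4 libraries in 2 groups, this likeness is mainly that of the size of the difference.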

How the data were processed

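Polyadenylated RNA of HK-2 cells was sequenced in 2 Doxy(-) and 2 Doxy(+) libraries, grouped by the labels. The study's methods name Trim Galore 0.6.6, cutadapt 2.5, STAR 2.7.9a and RSEM on hg38, whereas the deposited tables have the layout that kallisto writes; which release, version and strand setting it ran with is not given in the sources used here. The deposited estimated counts are the authors' quantifier's expected counts of reads per Ensembl transcript, not normalized. The deposited TPM values are scaled to 1000000 per library. Of 180253 identifiers, 150691 (83.6%) matched GENCODE release 44, and the unmatched carried 9.66% to 9.89% of reads and stayed out. Library totals were 14513497 to 16618401 in Doxy(-) and 14042545 to 14664879 in Doxy(+).

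Counts were summed per gene symbol, rounded and compared by the quasi-likelihood test of edgeR 4.0.16 (R 4.3.3, TMM, filterByExpr, group as the only term, Benjamini-Hochberg over all 13542 genes tested). CPM used TMM-adjusted totals. The SE of a log2 fold change by edgeR was derived as its size divided by the square root of the F statistic. It therefore restates that statistic and is no separate measure of spread. With 2 residual degrees of freedom, errors of single genes lean on the spread of all genes. Alternatives were RLE size factors, no filter, a mean of at least 1 CPM, DESeq2 1.42.0, limma 3.58.1 on log2(TPM + 1) and log2(TPM + 0.1) for genes with a mean TPM of at least 1, a replicate block, an adjusted p under 0.01 and leaving out each library. Chosen after seeing the data were a crossed block and adding unmatched identifiers that repeat a matched transcript, which 6 pathway genes and no member have. Promoter windows came from RefSeq on GRCh38.p14. The test code was tested on simulated data.

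The members, lists and rules were chosen with earlier results of these data known. Named are the 10 members, TFE3, RELA, REL, CHUK, IKBKB, IKBKG, TNF, IL1A, IL1B, TNFRSF1A and IL1R1, up to 4 genes per list with the widest log2 fold change at an adjusted p under 0.05, and the 5 genes closest to VCAM1.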

Additional observations from a re-analysis of the deposited data

How the results depend on the processing

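The members kept their direction in every alternative except NFKB1, whose log2 fold change ran from -0.06 to 0.05 and changed sign in 4. The ranges were -1.58 to -1.29 for VCAM1, 0.24 to 0.34 for ICAM1, 0.04 to 0.20 for TNFAIP3, 0.12 to 0.44 for RELB and -0.86 to -0.64 for TRAF1. VCAM1 was the 1 member past both limits in all of them. In limma on TPM, 4 members were at an adjusted p under 0.05, against 7 by edgeR and by DESeq2 on all 4 libraries. The members were selected on this contrast, so nothing is read from these counts. ICAM1 was 0.34 and NFKB2 -0.27 on both TPM scales.

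Among all genes, 1299 were lower, 775 by DESeq2, 311 and 303 by limma on log2(TPM + 1) and log2(TPM + 0.1), 559 at an adjusted p under 0.01, and 596 to 1327 with 1 library left out. The 1328 higher were 781, 600, 596, 626, and 672 to 1250. Past both limits, the 64 lower were 99 without the filter, 41 by DESeq2, 33 and 36 by limma and 34 at the stricter limit, and 68 to 90 with 1 library left out, while the 203 higher were 118 by limma on log2(TPM + 1), 127 at the stricter limit and 151 to 214. The 23 lower pathway genes were 14 by DESeq2, 9 and 9 by limma, 13 at the stricter limit and 12 to 20 with 1 library left out, and the 11 higher were 7, 3 and 4, 3, and 4 to 10. The cause of the differences between tools was not tested. Of the named genes called by edgeR, BCL3, CXCL3, ICAM5, RELA, TLR3 and ZC3H12A did not pass by DESeq2, and these and ALCAM, CARD10, ITGB1, RNF31, TNIP1 and TRAF5 did not pass in limma on log2(TPM + 1).

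The replicate numbers share only a number by the labels. The correlation of same-numbered deviations was -0.009 over all genes tested and -0.232 over 9608 genes of at least 10 CPM. With the replicate block, 1261 genes were lower and 1282 higher, and 21 and 8 pathway genes. The crossed pairing gave 1165 and 1207 genes, and 18 and 8 pathway genes. With 2 libraries per group and 84.0 to 288 VCAM1 reads, the shares of single transcripts and the low ligands are the least certain values.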
